A study of Rattus norvegicus with 20 samples.

Results

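Mesenchymal stromal cells (MSCs) that had spent 3 weeks on a stiff 100 kPa surface and then 2 weeks on a soft 2 kPa surface (3w100→2w2) were compared with MSCs that had spent all 5 weeks on 2 kPa (5w2). Both groups ended on the soft surface and differed in the surface of their first 3 weeks, so the comparison asks what remained of stiff priming after 2 weeks of soft culture. The members are the 4 libraries that the sample labels place in these groups, 2 of 3w100→2w2 and 2 of 5w2, out of 20 libraries in the series. The other 16 libraries hold MSCs after 1 and 3 weeks on either surface (1w2, 1w100, 3w2 and 3w100, 3 libraries each), after 5 weeks on 100 kPa (5w100, 2 libraries), and after 3 weeks on 2 kPa followed by 2 weeks on 100 kPa (3w2→2w100, 2 libraries).

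The cells of all groups came from the bone marrow of female Wistar rats, which were killed with isoflurane and KCl. The sources used here name no transgene and no other drug for them. The cells were grown on gelatin-coated silicone, enriched after a first passage with magnetic beads against CD54 and CD90 to remove blood cells, and moved to a fresh surface every week. Marrow was plated straight onto the 2 kPa or the 100 kPa surface, so that soft-primed and stiff-primed cultures were separate from the day of isolation. Cells that attached or expanded unequally on the 2 surfaces and cells that changed on them cannot be told apart, nor can fewer cells of a type and less RNA per cell in bulk libraries. No source used here states that libraries with one replicate number came from one rat.

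MSCs are the adherent stromal cells of the marrow, which can form bone, fat and cartilage and which take part in wound repair. On stiff substrates they tend to spread, build stress fibres of α-smooth muscle actin, and deposit collagen as myofibroblasts, the contractile cells of scars. Soft substrates keep most of them from that state. Mechanical memory is the name for features of the first surface that persist after the cells have been moved to another one.

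The values are reads counted per Ensembl gene. The 4 libraries held 18093017 to 24103082 counts, within the range of 16127907 to 24139128 over all 20, and both 3w100→2w2 libraries (19072978 and 18093017) were shallower than both 5w2 libraries (24103082 and 21907805). They had at least 1 count for 15639 to 16286 genes, and their 10 most abundant genes took 13.9% to 17.2% of the counts. Replicates of each group differed far beyond sampling noise, with a chi-square per degree of freedom of 58.2 in 3w100→2w2 and 86.0 in 5w2, so neither pair looked like a single library deposited again. The identifiers were not paired with gene symbols here, which leaves the known roles of the genes, the pathways and the markers of MSCs and blood cells out of the account. Genes are therefore described by their levels in each group, and 2 identifiers in each direction are given.

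Each 3w100→2w2 library lay closest to the library of its own number from cells that had never left the stiff surface. Distance was taken as the root mean square (RMS) difference of log2 CPM, counts scaled to library size, over 14034 genes. Replicate 1 of 3w100→2w2 was at 0.34 from replicate 1 of 5w100, and replicate 2 at 0.33 from replicate 2 of 5w100. Between the 2 replicates of 3w100→2w2 the distance was 0.71, and across numbers those to 5w100 were 0.74 and 0.75.

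The distances to 5w2 differed between the 2 stiff-primed libraries. Replicate 1 of 3w100→2w2 was at 0.61 and 0.76 from the 2 libraries of 5w2, about as far as these lay from each other (0.67). Replicate 2 was at 0.97 and 1.00. Against the mean of 5w2, replicate 1 had 761 genes that were higher by 2-fold or more and 324 that were lower, whereas replicate 2 had 1379 and 842. Both libraries agreed for 583 of the higher and 172 of the lower genes, and 41 genes passed 2-fold in opposite directions. Between the 2 libraries of 5w2, 750 genes were 2-fold or more higher in replicate 1 and 567 in replicate 2.

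**Figure D1:**
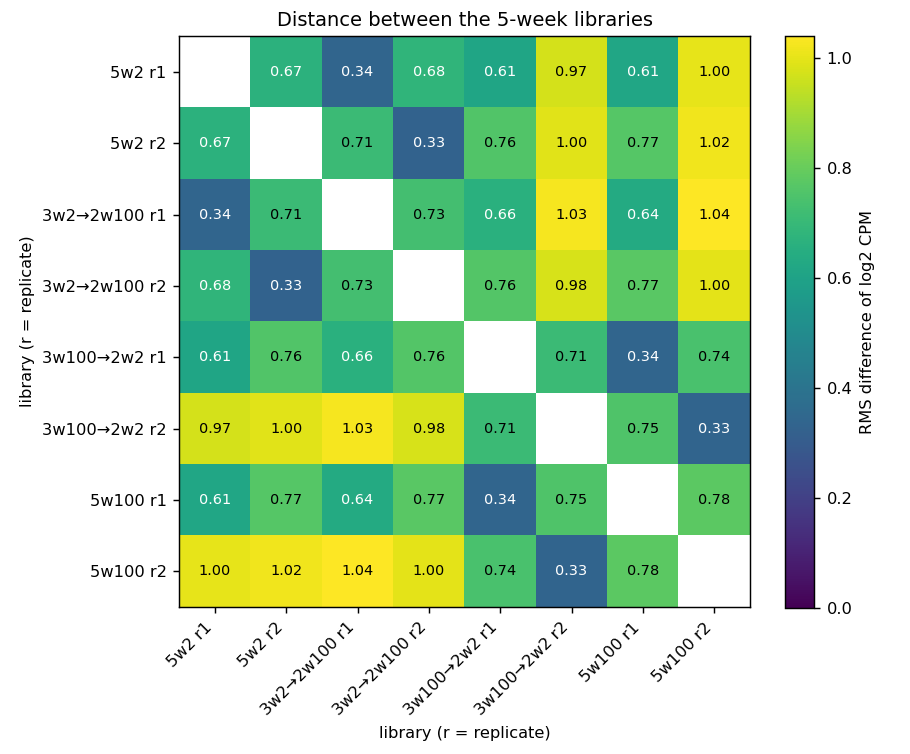
Heat map of the RMS difference of log2 CPM over 14034 genes between each 2 of the 8 libraries from 5 weeks, with libraries on both axes and r for the replicate. The lowest values, 0.33 to 0.34, join libraries of one number and one first surface, and replicate 2 of 3w100→2w2 stands at 0.97 to 1.00 from 5w2.

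After 2 weeks on the soft surface, 25 of 14034 genes differed between stiff-primed and soft-kept cells at a Benjamini-Hochberg adjusted p below 0.05 in edgeR's quasi-likelihood test, or 0.178% of the genes tested. Of these, 20 were higher in 3w100→2w2 than in 5w2 (0.143%) and 5 were lower (0.0356%). The higher genes were larger in change: 17 of 20 differed by 2 or more on the log2 scale, with a median log2 fold change of 2.84, against 1 of 5 among the lower genes, with a median of -0.99. For 2 of the 20 no read was counted in 5w2, and with these at the lower bound that 3 counts over the group allow, the median was 2.66. The 2 directions also differed in level. At a mean of 1 to 10 CPM lay 12 of the higher and 1 of the lower genes, and above 100 CPM 2 and 3. Over all genes the SD of the log2 fold change was 1.06 in the first range and 0.44 in the second. In 21 of the 25 the libraries of the 2 groups were separated by a gap of more than 2-fold, which describes genes chosen from these same libraries. Separation of any size was found for 22.6% of all genes tested in the higher direction and for 21.5% in the lower. Single libraries decided the number of calls, which was 0 without 3w100→2w2 replicate 2, 0 without 5w2 replicate 1, 0 without 5w2 replicate 2, and 76 without 3w100→2w2 replicate 1. Leaving out a library outside the comparison, which changes both the shared estimate of the spread and the set of genes tested, also moved it, to 140 without 3w2 replicate 3, to 104 without 3w2 replicate 2, to 39 without either library of 5w100, to 10 without 3w2 replicate 1, to 9 and 10 without 1w2 replicates 1 and 2, to 12, 15 and 15 without 1w100 replicates 1 to 3, and to 11, 16 and 14 without 3w100 replicates 1 to 3. A fit on the 4 libraries alone called 0 genes, with 1213 at an unadjusted p below 0.05, while DESeq2 called 350 on these libraries and 450 on all 20. Fits with the replicate number as a block called 261 to 389, as set out in the closing section.

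At an unadjusted p below 0.05, 1900 genes (13.5%) differed, 1200 of them higher in 3w100→2w2 (8.55%) and 700 lower (4.99%). The excess of higher genes lay at low levels. Among 1798 genes with a mean of up to 1 CPM, 203 were higher and 55 lower, and among 3600 genes of 1 to 10 CPM, 421 were higher and 109 lower. Above that level the directions were nearly balanced, with 459 higher and 412 lower among 6885 genes of 10 to 100 CPM, and 117 and 124 among 1751 genes above 100 CPM. The 5w2 libraries were the deeper ones, and the split by level was not repeated at equal depth. With all libraries thinned to 16127907 counts, 16 genes were called, 13 of them higher. The plot of fold change against level shows both features.

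**Figure D2:**
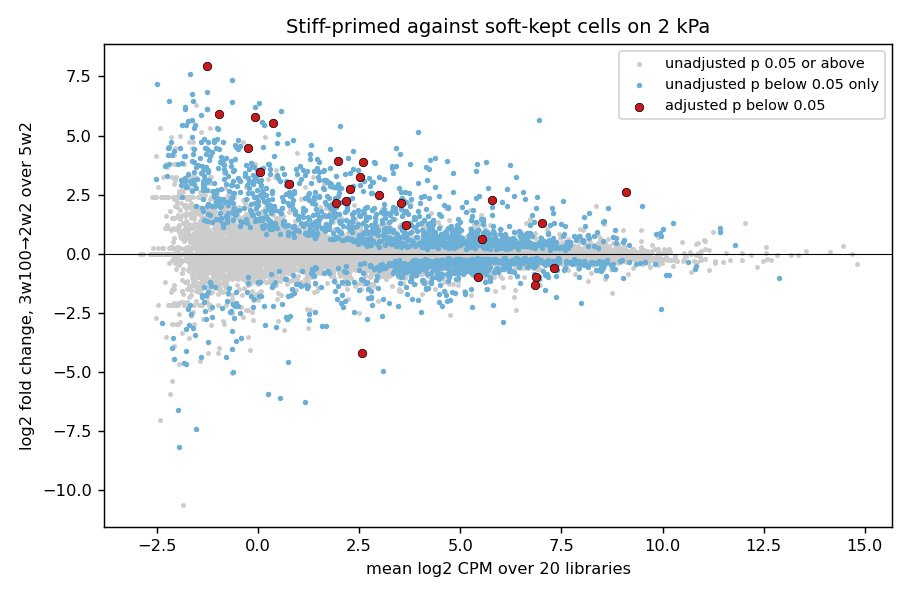
Log2 fold change of 3w100→2w2 over 5w2 (vertical axis) against mean log2 CPM over 20 libraries (horizontal axis), 1 point a gene. Red points are the 25 called genes, 20 above and 5 below 0, and blue points are the other genes with an unadjusted p below 0.05, which spread further upward than downward at low levels.

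ENSRNOG00000018254 had no read counted in 5w2, so its difference between the groups has only a lower bound and no rank. It was counted 40 and 18 times in the 2 libraries of 3w100→2w2 (2.16 and 1.02 CPM) and 0 times in both libraries of 5w2. The groups did not overlap, and the level was at least 23.6-fold higher in 3w100→2w2, where 5w2 was set to the 3 counts that its summed 0 allows (edgeR, adjusted p = 0.0255). In cells that stayed on 100 kPa it stood at 1.43 and 0.93 CPM, and in soft-primed cells moved to 100 kPa at 0.06 and 0.00 CPM. At 3 weeks it was between 0.06 and 0.38 CPM in 3w2 and between 0.29 and 0.74 CPM in 3w100, and these groups overlapped. This gene therefore separated the 5-week groups by their first surface and the 3-week groups only in part. Its call was lost without 1w2 replicate 1, 3w100→2w2 replicate 2, 5w2 replicate 1 or 5w2 replicate 2, and stayed in the other 16 of 20 fits that left out a library.

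ENSRNOG00000000564 was nearly as low in 5w2. It had 18 and 39 counts in 3w100→2w2 (0.97 and 2.22 CPM) and 1 and 0 counts in 5w2 (0.04 and 0.00 CPM). The ratio of the summed counts per depth was 69.6, with an exact 95% counting interval of 12.01 to 2798 (edgeR, adjusted p = 0.0473). The gene was on at the start on both surfaces, at 1.66 to 1.99 CPM in 1w2 and 1.90 to 2.51 CPM in 1w100. By 3 weeks it was at 0.19 to 1.22 CPM in 3w2 and 0.84 to 2.25 CPM in 3w100. In 5w100 it was at 1.14 and 2.02 CPM and in 3w2→2w100 at 0.23 and 0.12 CPM, so that the low level went with the soft first surface on either second surface.

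Among the 5 genes called lower in 3w100→2w2, ENSRNOG00000039048 had the largest difference. It stood at 0.49 and 1.59 CPM in 3w100→2w2 and at 15.5 and 22.4 CPM in 5w2, without overlap, a log2 fold change of -4.19 ± 0.77 (SE; edgeR, adjusted p = 0.0465). Levels were similar on both surfaces at 1 week, at 5.35 to 13.5 CPM in 1w2 and 6.68 to 12.8 CPM in 1w100. At 3 weeks they were 6.34 to 28.5 CPM in 3w2 and 1.93 to 3.92 CPM in 3w100, already without overlap. The 5w100 libraries (0.40 and 1.42 CPM) lay beside those of 3w100→2w2, and the 3w2→2w100 libraries (14.2 and 20.3 CPM) beside those of 5w2.

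ENSRNOG00000012563 was the most evenly measured of the 4 genes. Its levels were 65.0 and 63.8 CPM in 3w100→2w2 and 159 and 162 CPM in 5w2, a log2 fold change of -1.31 ± 0.25 (SE; edgeR, adjusted p = 0.0499). In 5w100 it was at 59.2 and 55.7 CPM, and in 3w2→2w100 at 130 and 154 CPM. The 3-week groups did not overlap, with 144 to 206 CPM in 3w2 and 75.2 to 105 CPM in 3w100, while at 1 week they overlapped, with 121 to 181 CPM in 1w2 and 97.6 to 176 CPM in 1w100. The calls of this gene, of ENSRNOG00000039048 and of ENSRNOG00000000564 each held in 5 of 20 fits that left out a library. For both genes lower in 3w100→2w2 the call was lost without any one of the 4 libraries compared. For ENSRNOG00000000564 it was lost without any of them but 3w100→2w2 replicate 1.

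**Figure D3:**
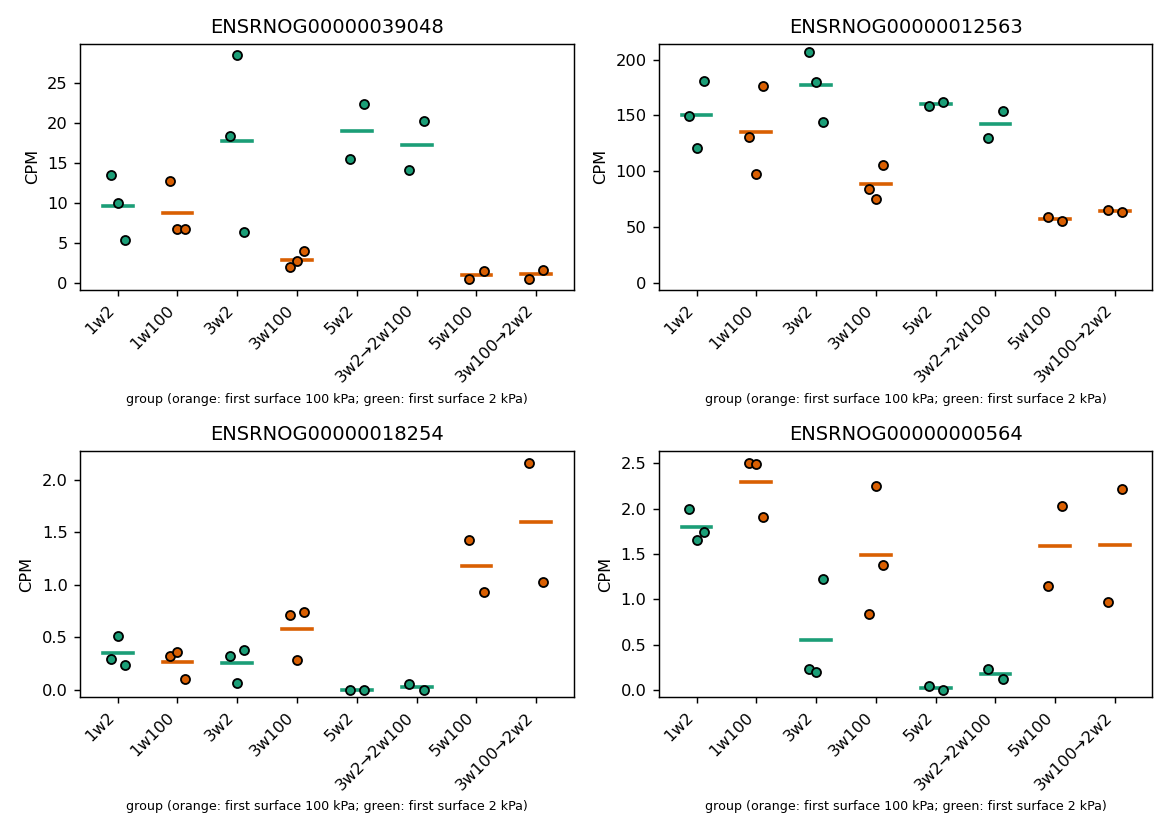
CPM of the 4 identifiers in each of 20 libraries (points) with the group mean (bars), by group on the horizontal axis, in orange where the first surface was 100 kPa and in green where it was 2 kPa. In the 5-week groups the points fall by first surface for all 4, and at 1 week the 2 groups overlap for each.

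The 20 higher genes stood in one order of levels across the groups by their medians, which not every gene followed. Their median level, taken over genes from the group means, was 10.3 CPM in 3w100→2w2, 10.2 CPM in 5w100 and 7.36 CPM in 3w100. It was 4.37 CPM in 3w2, 1.32 CPM in 3w2→2w100 and 1.12 CPM in 5w2. By these medians the soft-primed groups were lower at 5 weeks than at 3 weeks, whereas the stiff-primed groups were higher. The log2 change from 3w2 to 5w2 had a median of -1.63 over these 20 genes and was negative in each, from -6.22 to -0.12. The change from 3w100 to 3w100→2w2 had a median of 0.23 and ran from -1.25 to 1.43. Since 5w2 and 3w100→2w2 served to choose the genes, these values describe them and were not tested.

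The 5 lower genes were abundant apart from ENSRNOG00000039048. Their median level was 64.4 CPM in 3w100→2w2, 57.4 CPM in 5w100 and 88.0 CPM in 3w100, against 160 CPM in 5w2, 142 CPM in 3w2→2w100 and 132 CPM in 3w2. Here the medians of the stiff-primed and soft-primed groups lay further apart at 5 weeks than at 3 weeks. The log2 change from 3w100 to 3w100→2w2 had a median of -0.41 and ran from -1.45 to -0.05. That from 3w2 to 5w2 had a median of 0.28 and ran from -0.14 to 0.40. These genes were also chosen by 3w100→2w2 and 5w2, so the values describe them and were not tested.

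The 25 genes were also read in the libraries of other groups, which set no fold change of the comparison but entered the shared estimate of the spread behind the calls. Between 5w100 and 3w2→2w100, the 2 groups that ended on 100 kPa, all 20 higher genes were higher in the stiff-primed cells and all 5 lower genes lower, without overlap of the libraries. Such separation was found for 18.7% of all genes tested in the first direction and for 17.4% in the second. The median log2 fold change there was 2.50 for the higher and -1.11 for the lower genes. These libraries are not independent of those compared, because libraries of one number and one first surface resembled each other: 5w2 and 3w2→2w100 were 0.34 apart in replicate 1 and 0.33 in replicate 2. Between 3w100 and 3w2, 10 of the 20 higher genes (all genes, 7.78%) and 4 of the 5 lower genes (all genes, 6.72%) did not overlap. All 25 had the same sign at 3 weeks as at 5 weeks, beside 69.5% of all genes, with a median log2 fold change of 0.83 for the higher and -0.48 for the lower ones. At 1 week the sign was the same for 20 of 25, beside 58.3% of all genes, and the median over the higher genes was 0.09.

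**Figure D4:**
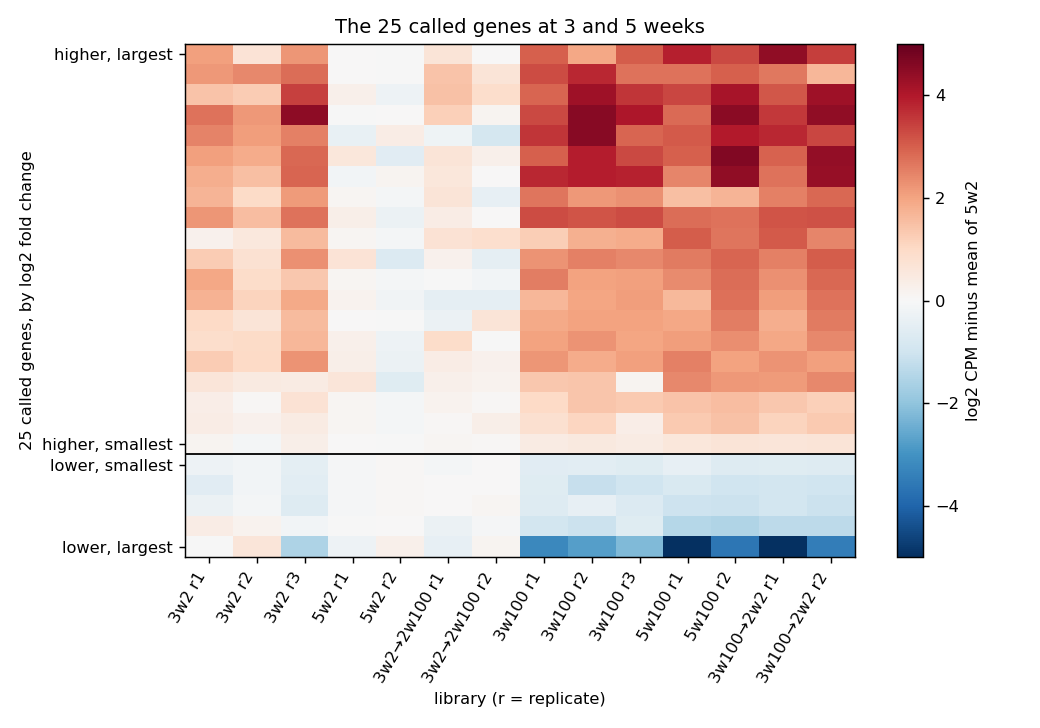
Log2 CPM of the 25 called genes (rows, sorted by log2 fold change, 20 higher above the line and 5 lower below it) minus their mean in 5w2, in the 14 libraries from 3 and 5 weeks (columns, r for replicate). Red is above and blue below 5w2, and the 3w2 libraries are mostly above 5w2 for the higher genes while those of 3w2→2w100 are near it.

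Whether differences seen at 3 weeks were kept was asked from the other side. Genes were chosen by their difference between 3w100 and 3w2 and followed into the comparison. No gene passed the adjusted threshold between 3w100 and 3w2 in edgeR (0%), where DESeq2 on all libraries called 10, so the genes were taken at an unadjusted p below 0.05. This gave 404 genes higher in 3w100 (2.88%) and 459 higher in 3w2 (3.27%). Together these were 863 of 14034 genes, not far above the 0.05 that no change at all would give. The lowest adjusted p was 0.43 (edgeR), so a gene in these lists is not shown to differ at 3 weeks. Neither the 3w100→2w2 nor the 5w2 libraries entered these differences, but the libraries of 3 and 5 weeks are not independent. All shared one estimate of the spread, and between weeks, libraries of one first surface and one number (1 or 2) were 0.48 to 0.55 apart while those of unlike number (1 and 2) were 0.61 to 0.78 apart, in 3w2 against 5w2 and in 3w100 against 3w100→2w2. The part of this likeness in the counts that follow was not tested.

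Of the 404 genes higher in 3w100, 366 (90.6%) were also higher in 3w100→2w2 than in 5w2, where 69.5% of all genes kept the sign they had at 3 weeks. At an unadjusted p below 0.05, 220 of the 404 were higher (54.5%, beside 8.55% of all genes) and 0 lower. Their median log2 fold change was 0.54 at 3 weeks and 0.51 after 2 further weeks on 2 kPa. Both stiff-primed libraries took part, with 362 of 404 genes above the mean of 5w2 in each and medians of 0.38 in replicate 1 and 0.58 in replicate 2. In 299 of the 404 (74.0%) both libraries of 3w100→2w2 were above both of 5w2, beside 22.6% of all genes. The libraries used to choose the genes bore on the size of the median, which was 0.28 without 3w100 replicate 1, 0.31 without 3w2 replicate 2 and 0.83 without 3w2 replicate 3.

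Of the 459 genes higher in 3w2, 429 (93.5%) were lower in 3w100→2w2 than in 5w2, beside the same 69.5% of all genes. At an unadjusted p below 0.05, 207 of the 459 were lower (45.1%, beside 4.99% of all genes). Their median log2 fold change was -0.53 at 3 weeks and -0.47 in the comparison, with medians of -0.39 and -0.49 in the 2 stiff-primed libraries. Both libraries of 3w100→2w2 were below both of 5w2 in 342 genes (74.5%), beside 21.5% of all genes. Another 3 genes had crossed over at an unadjusted p below 0.05, with log2 fold changes of -0.47, -4.06 and -0.27 at 3 weeks against 0.94, 3.60 and 0.33 in the comparison. None of the 3 passed the adjusted threshold (edgeR, adjusted p from 0.142 to 0.357).

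Most genes with larger differences at 3 weeks likewise had the same sign in the comparison. Of 113 genes that were 2-fold or more higher in 3w100, 102 (90.3%) stayed higher, beside 69.5% of all genes with an unchanged sign. The median log2 fold change over the 113 was 1.56 at 3 weeks and 2.12 in the comparison. Of 130 genes that were 2-fold or more higher in 3w2, 118 (90.8%) stayed so, with medians of -1.76 and -1.56. Over these 113 genes the median log2 change from week 3 to week 5 was -0.87 in the cells kept soft. In the cells moved from stiff to soft it was -0.22. Over the 130 genes the 2 medians were 0.12 and 0.13. The 3-week libraries served to choose the genes, so these changes describe them and were not tested.

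**Figure D5:**
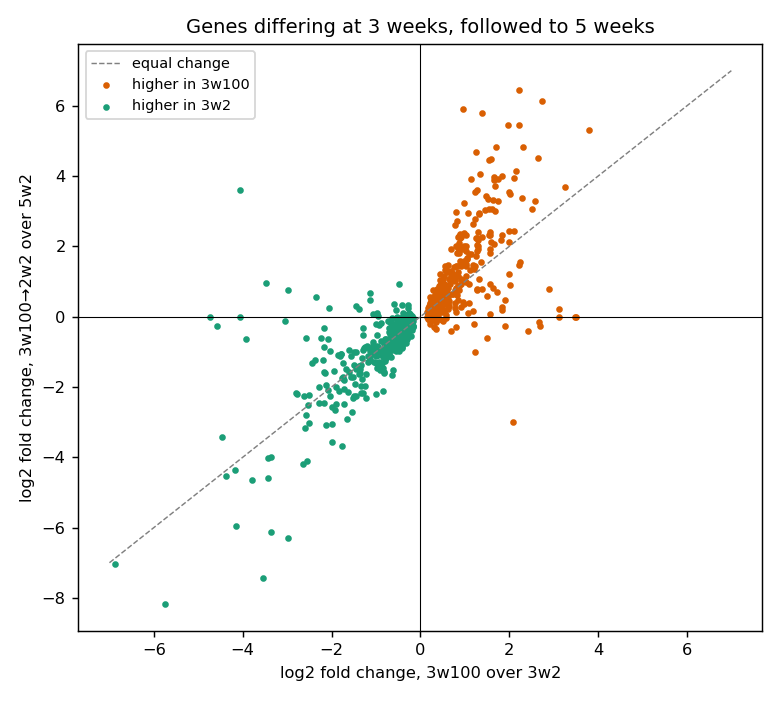
Log2 fold change of 3w100→2w2 over 5w2 (vertical axis) against that of 3w100 over 3w2 (horizontal axis) for the 404 genes higher in 3w100 (orange) and the 459 higher in 3w2 (green) at an unadjusted p below 0.05. The dashed line marks equal change, and 366 orange and 429 green points lie in the quadrants of unchanged sign.

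The difference between stiff-primed and soft-kept cells was then set against that at 3 weeks gene by gene. This test was chosen after the values had been seen. No gene passed for a change of the difference between 3 and 5 weeks (edgeR, 0% at adjusted p below 0.05), with 398 genes (2.84%) at an unadjusted p below 0.05. That share is below the 0.05 that no change at all would give, and the 0 does not show that the differences were equal. DESeq2 called 0 genes on all libraries and 5 on only the groups compared. The SD of the log2 fold change over all genes was 0.89 in the comparison and 0.50 at 3 weeks, values that hold the sampling error of 2 and of 3 libraries a group as well as any change of level.

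What 2 weeks on the soft surface had altered in stiff-primed cells was asked by comparing 3w100→2w2 with 5w100. Here 0 of 14034 genes passed (edgeR, 0% at adjusted p below 0.05), with 87 genes (0.62%) below 0.05 before adjustment and likewise 0 calls by DESeq2 on all libraries. That share lies far below the 0.05 that no change at all would give. Same-numbered libraries of these 2 groups were 0.34 and 0.33 apart. The fit had no block, so its spread also held the larger distances between numbers. The 0 therefore does not show that nothing had changed. The SD of the log2 fold change over all genes was 0.38. For the 4 identifiers above, the log2 difference between 3w100→2w2 and 5w100 was 0.44 ± 0.65 for ENSRNOG00000018254, 0.01 ± 0.68 for ENSRNOG00000000564, 0.17 ± 0.85 for ENSRNOG00000039048 and 0.17 ± 0.24 for ENSRNOG00000012563 (SE). These errors come from the fit without a block and do not show equal levels. Within each replicate number, 3w100→2w2 was above 5w100 for 3 of the 4 genes, and for ENSRNOG00000000564 it was below in replicate 1 and above in replicate 2.

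The effect of stiff priming on 2 kPa (3w100→2w2 minus 5w2) was also tested against that on 100 kPa (5w100 minus 3w2→2w100) in one model. No gene passed for a difference between the 2 effects (edgeR, 0%), with 50 genes (0.356%) below 0.05 before adjustment and 0 calls by DESeq2 as well. This share too lies far below 0.05. The contrast is built of same-numbered libraries 0.33 to 0.34 apart, fitted without a block, so the 0 does not show that the 2 effects were equal. Over the 20 higher genes the median of the difference was 0.21 on the log2 scale, within a range of -1.46 to 3.54, and over the 5 lower genes it was -0.01.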

How the data were processed

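Bulk RNA-seq of 20 libraries in 8 groups was used. Groups and replicate numbers came from the sample labels and group names from the paper. The deposited values are raw read counts of Ensembl genes, which the authors made by trimming with Trim Galore, checking with FastQC, mapping to mRatBN7.2 (rn7) with HISAT2 and counting with featureCounts, and used DESeq2 themselves. Tool versions, strand setting and treatment of multi-mapping reads: not given in the sources used here. Overlapping genes and near-identical copies therefore have uncertain counts. The table lists 30560 genes. The gene table used here for names carries no Ensembl identifiers, so none of the 30560 could be looked up, and gene lists, cell type markers, promoters and motifs were not analysed.

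The test was edgeR's quasi-likelihood test (edgeR 4.0.16, R 4.3.3) with TMM factors, after filterByExpr (minimum count 10, total 15) had kept 14034 genes. A single model held all 8 groups and 20 libraries, with no block. The call threshold was a Benjamini-Hochberg adjusted p of 0.05. Log2 CPM used a prior count of 2. P-values measure the spread between these libraries. A count of 0 allows up to 3 counts, and intervals and floors cover counting error only. The edgeR and DESeq2 1.42.0 fits were tested on simulated data. The libraries, lists and tests were chosen with earlier results of these data known. The identifiers named were the 2 with the largest fitted change each way among called genes without overlap between groups and with at least 1 CPM in the higher group, without the gene symbols that the rule also asked for. Alternatives were DESeq2, fits on fewer libraries, RLE factors, other filters on low counts, thinned counts, the replicate number as a block, unadjusted p, and leaving out each library. A group left with 1 library took its spread from the other groups.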

Additional observations from a re-analysis of the deposited data

How the results depend on the processing

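The 25 genes called between 3w100→2w2 and 5w2 became 450 with DESeq2 on all groups, 350 with DESeq2 on only the groups compared, 49 without a filter on low counts, 16 with thinned counts, 0 with edgeR on only the 5-week libraries or only the groups compared (1257 and 1213 at an unadjusted p below 0.05), 1900 at an unadjusted p below 0.05, and 0 to 140 when 1 library was left out. DESeq2 on all groups, the fit without a filter and the edgeR block fit on all libraries each held all 25. RLE factors gave 24 and a filter on a mean of 10 counts gave 17. The causes of these shifts were not tested. The 0 genes against 5w100 stayed 0 in 30 of 32 alternatives, were 87 at an unadjusted p, and 0 to 0 with 1 library left out. The 0 genes for priming on 2 kPa minus priming on 100 kPa were 50 at an unadjusted p and 0 in the other 30 alternatives. The 0 genes for the difference at 5 weeks minus that at 3 weeks were 398 at an unadjusted p and 5 with DESeq2 on only the groups compared.

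Blocked on replicate number, the count between 3w100→2w2 and 5w2 was 354 with edgeR on all libraries, 261 with edgeR on the 5-week libraries and 389 with DESeq2 on the 4 libraries. This DESeq2 block gave 1 gene against 5w100 and 14 for the difference at 5 weeks minus that at 3 weeks. With 2 replicates a group, the deviations of same-numbered libraries of 3w100→2w2 and 5w2 had r = 0.168 across genes. The labels do not say that a number marks one rat, so the main fit used no block. Within one first surface a number was more than a name, with same-numbered 5-week libraries 0.33 to 0.34 apart. Across first surfaces, same-numbered libraries of 3w2 and 3w100 were 0.46, 0.79 and 0.40 apart in replicates 1 to 3. The 3w100 libraries of other numbers were at 0.73 and 0.67 from 3w2 replicate 1. They were at 0.65 and 0.80 from replicate 2, and at 0.52 and 0.53 from replicate 3. The same-numbered library was thus the nearest for 3w2 replicates 1 and 3 but not for replicate 2. Whether the fit with or without a block is the better one was not tested.

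Each of the 4 identifiers kept its direction in every alternative that gave it a value. The same-sign shares of the genes chosen at 3 weeks ran from 81.1% to 93.4% for those higher in 3w100 and from 84.0% to 95% for those higher in 3w2. At 2 libraries a group and 18093017 to 24103082 counts, a gene that did not pass is not shown to be equal.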
